A study of Mus musculus with 16 samples.

Results

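TGF-beta signalling in the mouse kidney was described through 9 genes, chosen by name as the rows of the deposited expression table for the ligands Tgfb1, Tgfb2 and Tgfb3, the receptors Tgfbr1 and Tgfbr2, the signal transducers Smad2 and Smad3, and the inhibitory targets Smad7 and Skil. All 9 were found among the 30277 genes of the table. The table holds polyadenylated RNA of whole kidneys, perfused, dissected and flash frozen, from 16 mice in 4 groups of 4, with 1 animal for each library. The animals were C57BL/6J congenics, 46 to 59 days old, of a line with the recessive Klotho mutation of the gene Kl. The protein of Kl helps FGF receptors in the kidney to bind FGF23, a hormone that controls phosphate. Sex and genotype formed the 4 groups, controls and KlKl animals of each sex. The KlKl animals were homozygous for the mutation and had renal disease, and the controls had healthy renal function. Male controls 1 and 2 and all 4 female controls were heterozygous (+/Kl), so these controls carry 1 mutant allele, and male controls 3 and 4 were wild type (+/+). Male controls were 46 to 48 days old, male KlKl animals 46 to 59, female controls 47 to 57 and female KlKl animals 47 to 52. No other treatment is named in the labels.

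TGF-beta ligands are secreted in a latent form, bound to a propeptide and to matrix proteins, and act once they are released. The active ligand brings together the type II receptor Tgfbr2 and the type I receptor Tgfbr1, a kinase that phosphorylates Smad2 and Smad3, which then enter the nucleus with Smad4. Among the first genes they switch on are Smad7, which blocks the type I receptor, and Skil, which encodes SnoN, a repressor of SMAD-driven transcription, so that the pathway limits itself. In the kidney the pathway is best known for driving matrix deposition by fibroblasts and for its part in scarring after injury. The activity of the pathway rests on ligand release and SMAD phosphorylation, which RNA levels do not measure.

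In the build mm39, and as the deposited table gives the positions, Tgfb1 (ENSMUSG00000002603) lies on the plus strand of chromosome 7 from 25386427 to 25404503, Tgfb2 (ENSMUSG00000039239) on the minus strand of chromosome 1 from 186354989 to 186438187, and Tgfb3 (ENSMUSG00000021253) on the minus strand of chromosome 12 from 86103519 to 86125816. The receptor gene Tgfbr1 (ENSMUSG00000007613) lies on the plus strand of chromosome 4 from 47353222 to 47414932, and Tgfbr2 (ENSMUSG00000032440) on the minus strand of chromosome 9 from 115913361 to 116004429. Smad3 (ENSMUSG00000032402) is on the minus strand of chromosome 9 from 63554049 to 63665277. Skil (ENSMUSG00000027660) is on the plus strand of chromosome 3 from 31149207 to 31176727.

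The promoters of 2 ligand genes are shown because these ligands had the highest ligand level (Tgfb1) and the largest ratio between the sexes (Tgfb2). RefSeq starts on GRCm38.p6 matched 5 of the 9 members, namely Tgfb1, Tgfb2, Tgfbr1, Tgfbr2 and Smad3. Each sequence is the 250 bases before the gene's start, read along the gene's strand, with no annotated exon of the gene inside. Capitals mark the motif GGGCGG on either strand in Tgfb1, and the motifs CACGTG and TATAAA in Tgfb2. The Tgfb1 sequence is chr7:25686752-25687001 on the plus strand and the Tgfb2 sequence is chr1:186705990-186706239 on the minus strand.
Tgfb1: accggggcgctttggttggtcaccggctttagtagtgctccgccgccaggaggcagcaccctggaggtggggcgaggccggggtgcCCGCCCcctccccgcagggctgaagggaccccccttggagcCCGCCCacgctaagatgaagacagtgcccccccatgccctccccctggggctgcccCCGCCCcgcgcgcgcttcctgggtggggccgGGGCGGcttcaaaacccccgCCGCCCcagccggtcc
Tgfb2: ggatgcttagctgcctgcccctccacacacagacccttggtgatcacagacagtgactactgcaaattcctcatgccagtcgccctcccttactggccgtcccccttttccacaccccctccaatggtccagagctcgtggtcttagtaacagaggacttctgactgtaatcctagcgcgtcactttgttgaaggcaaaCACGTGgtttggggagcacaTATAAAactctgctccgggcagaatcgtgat
The Tgfb1 stretch was 75.2% G and C, held GGGCGG 5 times and held no TATAAA. The Tgfb2 stretch was 53.6% G and C, held no GGGCGG, and had TATAAA starting 31 bases before the start and the E-box CACGTG 51 bases before it. On both strands and in windows of the same length, GGGCGG was in 32.7% of 32851 promoters, TATAAA in 12.4% and CACGTG in 6.02%. The motif CAGACA, which holds the SMAD-binding letters AGAC, was in 17.1% of these promoters, in that of Tgfb2 at 204 bases before the start and at 1 of the 2 annotated starts of Tgfbr1. These matches describe letters only.

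Library depth, in reads recovered from the table, was 8209618 to 20109683, and each of the 8 female libraries had fewer reads than 7 of the 8 male ones. Female control 3 had the fewest reads, and nuclear ribosomal RNA held 7.06% of its TPM against 0.484% to 1.36% in the other 15 libraries. Levels are given as scaled TPM, which is the deposited TPM divided by a median-ratio factor for the library. Kl was checked first, since its level tests the labels KlKl and control, though not those of sex. Its scaled TPM was 10.5, 8.07, 10.7 and 9.47 in the male controls against 1.08, 0.735, 0.179 and 1.03 in the male KlKl libraries. It was 4.03, 6.39, 3.05 and 2.68 in the female controls against 0.2, 0.0857, 0.0757 and 0.264 in the female KlKl libraries. Every KlKl library lay below every control of its sex, by limma log2 differences of -3.70 and -4.00 (SE 0.409, adjusted p = 0.00556 and 0.00107). The markers of proximal tubule, thick ascending limb, distal tubule, collecting duct and podocytes were all detected, as the label kidney implies. In bulk tissue, fewer cells of a type and less RNA for each cell cannot be told apart. Library numbers run from S17 to S24 in each sex, and no run or batch is stated, so sex and any processing of males and females apart cannot be told apart.

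Compared for each kilobase of exon, the receptors, Smad7 and Smad3 were the most abundant members and the ligands Tgfb2 and Tgfb3 the least. These levels are recovered reads per kilobase of exon at a common library depth (RPKM). Tgfbr1 had the highest mean over the 16 libraries, 7.39 RPKM, followed by Tgfbr2 at 6.24, Smad7 at 5.87 and Smad3 at 5.28. The ranges of these 4 genes over the libraries overlapped, from 5.55 to 9.88 RPKM for Tgfbr1 and from 4.04 to 9.61 RPKM for Smad3. A lower tier held Skil at 2.44 RPKM, Smad2 at 2.35 and Tgfb1 at 2.21, which also overlapped. Tgfb2, at 0.775 RPKM, and Tgfb3, at 0.603, rested on only 21 to 92 and 16 to 37 reads in a library. Tgfb1, the main ligand of the adult kidney, was the highest of the 3 ligands in every group, with 2.15 ± 0.201 RPKM in male controls and 1.93 ± 0.729 in female controls (SD, n = 4). The order of Smad2 and Skil differed between the sexes. Smad2 was at 3.08 ± 0.525 RPKM and Skil at 2.48 ± 0.412 in male controls, against 1.48 ± 0.303 and 2.16 ± 0.314 in female controls (SD, n = 4).

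**Figure D1:**
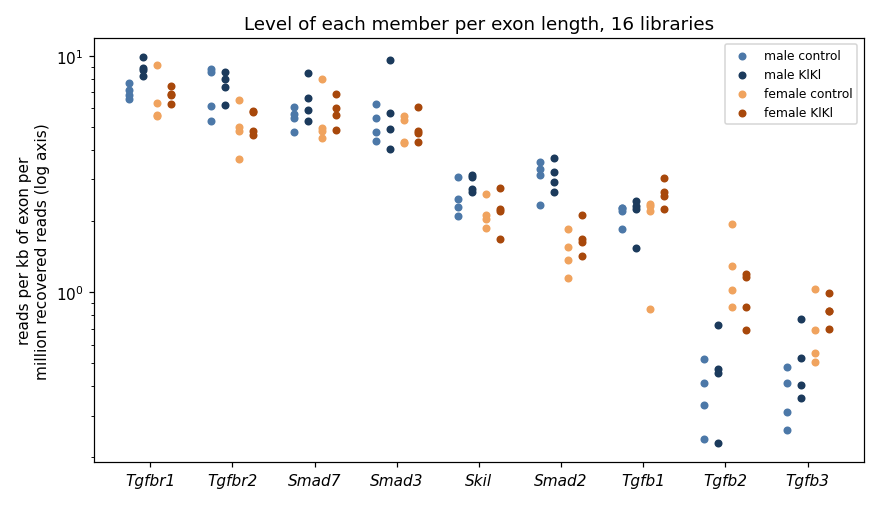
RPKM of each member, from recovered reads and exon length (log axis), with 1 point for each of 16 libraries, coloured by group and ordered by the mean. Receptors, Smad7 and Smad3 form the upper tier, and Tgfb2 and Tgfb3 lie lowest. Their male points lie mostly below their female points, with overlap. Male KlKl 3, at 0.729 for Tgfb2 and 0.767 for Tgfb3, lies among the female points.

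The question of the first comparison was what homozygosity for the Klotho mutation, with its renal failure, changed in each sex. No member of the pathway passed the test in either sex. With limma, 0 of the 7 members tested had an adjusted p under 0.05 in males and 0 of 7 in females, and 0 of 7 had an unadjusted p under 0.05 in either. The background was as low: 0.00547% of the 18273 genes tested passed in males (829 at an unadjusted p under 0.05) and 0.0109% in females (732). The mean effect of both sexes gave 0 of 7 members against 0.0219% of all genes, and the difference between the effects in males and females 0 of 7 against 0% (524 genes at an unadjusted p under 0.05). Voom on recovered reads, which tested all 9 members, also called 0 of 9 in each of these comparisons, at backgrounds of 0.0341% in males, 0.0114% in females, 0.0227% for the mean and 0% for the difference. The members' median log2 difference was 0.02 in males and -0.01 in females, beside -0.01 and 0.01 over all genes tested.

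**Figure D2:**
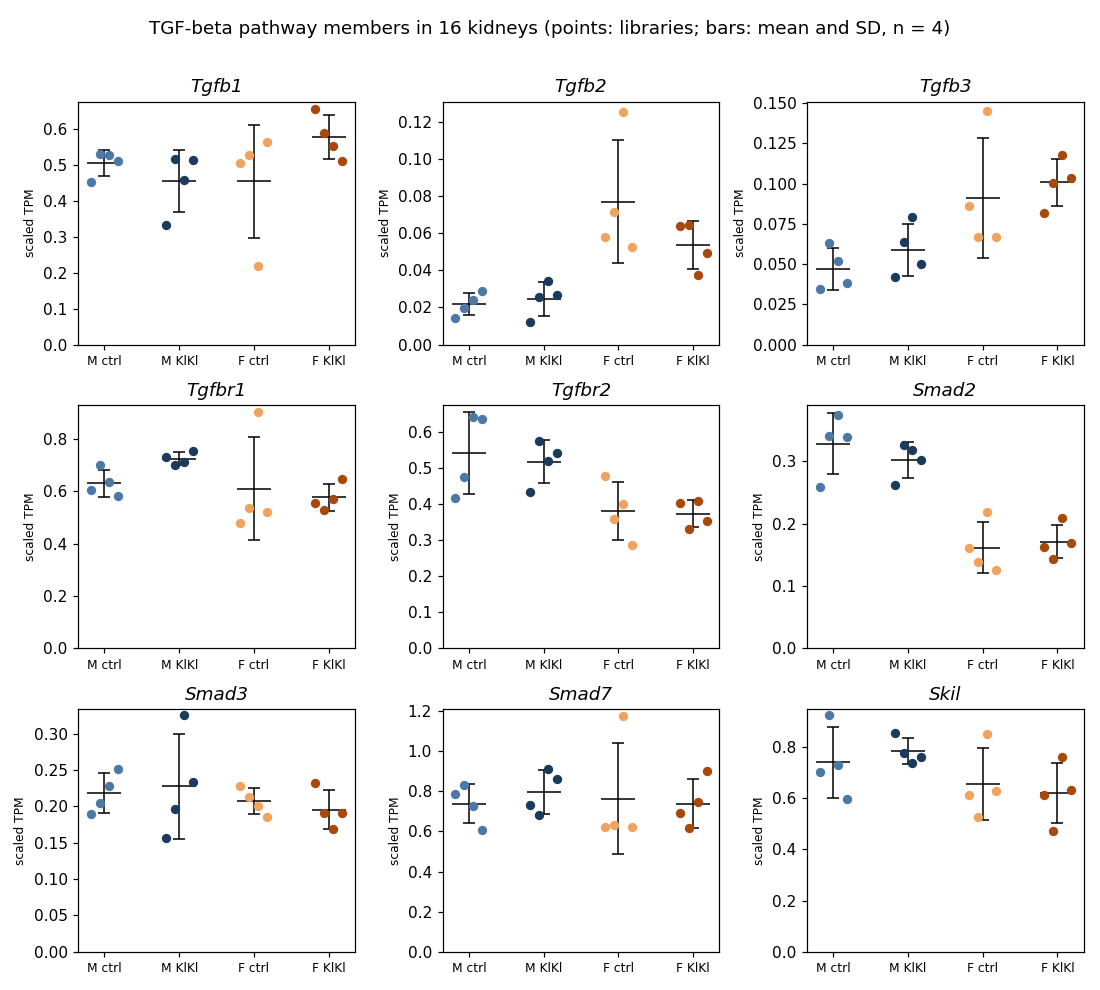
Scaled TPM (deposited TPM over a median-ratio factor) of each member in every library, as points, with the mean and SD of each group of 4. KlKl and control points of the same sex overlap for most members, while Smad2 is higher in all male libraries and Tgfb2 and Tgfb3 are higher in female ones within each genotype group.

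Among the ligands, Tgfb1 passed in neither sex, and its female comparison turned on 1 library. Tgfb1 scaled TPM was 0.451, 0.531, 0.528 and 0.511 in male controls and 0.333, 0.517, 0.459 and 0.514 in KlKl males. It was 0.505, 0.528, 0.219 and 0.563 in female controls and 0.654, 0.59, 0.553 and 0.511 in female KlKl libraries. Female control 3 was far below the others of its group, with 35 reads against 130 to 162, and the remaining libraries of both female groups overlapped. In limma the log2 difference of Tgfb1, on the log2(scaled TPM + 0.1) scale, was -0.14 in males (SE 0.194, 95% interval -0.55 to 0.28, adjusted p = 1) and 0.34 in females (SE 0.194, interval -0.07 to 0.76, adjusted p = 0.967). Without female control 3 the female difference was 0.10. The difference between the 2 effects, male minus female, was -0.48 (SE 0.275, adjusted p = 1), and -0.23 without that library.

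Tgfb2 and Tgfb3 lay below the level needed for the limma fit, 0.1 TPM in no fewer than 4 libraries, which Tgfb2 reached in 0 libraries and Tgfb3 in 3. Tgfb2 encodes the ligand that needs the co-receptor betaglycan for strong binding, and Tgfb3 the third isoform. Tgfb2 scaled TPM was 0.0145, 0.0199, 0.024 and 0.0291 in male controls, 0.0124, 0.0255, 0.0345 and 0.0268 in male KlKl, 0.0583, 0.0716, 0.125 and 0.0527 in female controls, and 0.0639, 0.0645, 0.0375 and 0.0492 in female KlKl libraries. Tgfb3 scaled TPM was 0.0346, 0.0632, 0.0522 and 0.0381 in male controls, 0.042, 0.0641, 0.0792 and 0.05 in male KlKl, 0.0859, 0.0667, 0.145 and 0.0667 in female controls, and 0.0818, 0.101, 0.118 and 0.104 in female KlKl libraries. For both ligands KlKl and control libraries of the same sex overlapped. The ratio of the means of Tgfb2, KlKl over control, was 0.18 on the log2 scale in males and -0.52 in females, with exact two-sided permutation p values of 0.629 and 0.257 (n = 4 against 4). For Tgfb3 these log2 ratios were 0.32 and 0.15, with exact permutation p values of 0.286 and 0.629 (n = 4 against 4), and none of the 4 tests had an adjusted p under 0.381. Female control 3 held the highest value of both ligands. Without it the female log2 ratios were -0.18 for Tgfb2 and 0.46 for Tgfb3.

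Neither receptor passed the test in either sex. Tgfbr1 scaled TPM was 0.607, 0.701, 0.635 and 0.582 in male controls and 0.733, 0.7, 0.712 and 0.756 in KlKl males, where 1 control just exceeded the lowest KlKl library. It was 0.48, 0.536, 0.906 and 0.52 in female controls and 0.558, 0.53, 0.571 and 0.648 in female KlKl libraries, and female control 3 was the highest of all 16. The log2 difference of Tgfbr1 was 0.18 in males (SE 0.139, interval -0.12 to 0.47) and -0.04 in females (SE 0.139, interval -0.33 to 0.26), with limma adjusted p values of 1 and 0.989. Without female control 3 the sign of the female difference turned, to 0.14.

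Tgfbr2, the receptor that binds the ligand first, had scaled TPM of 0.418, 0.474, 0.643 and 0.636 in male controls and 0.435, 0.575, 0.521 and 0.542 in KlKl males. In females it was 0.478, 0.358, 0.401 and 0.288 in controls and 0.403, 0.332, 0.409 and 0.352 in KlKl libraries. The KlKl libraries lay inside the range of the controls in both sexes. The male controls split into a lower pair, both heterozygous with library names that begin with CFK, and a higher pair, both wild type with names that begin with CFdk, so genotype and name series cannot be told apart there. The log2 difference of Tgfbr2 was -0.04 in males (SE 0.142) and -0.01 in females (SE 0.142), with limma adjusted p values of 1 for both. Against the heterozygous male controls alone it turned to 0.18.

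Smad2 (ENSMUSG00000024563, chromosome 18 from 76374651 to 76444035, plus strand) and Smad3, which carry the signal to the nucleus, passed the test for the KlKl effect in neither sex. Smad2 scaled TPM was 0.259, 0.34, 0.375 and 0.34 in male controls, 0.262, 0.327, 0.318 and 0.302 in male KlKl, 0.161, 0.138, 0.219 and 0.126 in female controls, and 0.163, 0.144, 0.209 and 0.169 in female KlKl libraries. Its log2 difference was -0.09 in males (SE 0.125, interval -0.35 to 0.18) and 0.06 in females (SE 0.125, interval -0.21 to 0.33), with limma adjusted p values of 1 and 0.976. Smad3 scaled TPM was 0.189, 0.205, 0.227 and 0.252 in male controls, 0.157, 0.196, 0.326 and 0.233 in male KlKl, 0.227, 0.213, 0.201 and 0.186 in female controls, and 0.233, 0.19, 0.168 and 0.192 in female KlKl libraries. Male KlKl 3 had the highest Smad3 value and male KlKl 1 the lowest, so that 1 group spanned the whole range. The log2 difference of Smad3 was 0.02 in males (SE 0.136) and -0.06 in females (SE 0.136), with limma adjusted p values of 1 and 0.982.

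Smad7 (ENSMUSG00000025880, chromosome 18 from 75500600 to 75529007, plus strand) and Skil are direct targets of the pathway as well as its inhibitors, and neither passed the test for the KlKl effect. Smad7 scaled TPM was 0.788, 0.83, 0.728 and 0.609 in male controls and 0.734, 0.68, 0.914 and 0.86 in KlKl males. In females it was 0.623, 0.633, 1.18 and 0.623 in controls and 0.693, 0.617, 0.747 and 0.901 in KlKl libraries. Female control 3 was again the highest of all 16, and the other 3 controls of its group lay within 0.623 to 0.633. The log2 difference of Smad7 was 0.10 in males (SE 0.177, interval -0.28 to 0.47) and -0.01 in females (SE 0.177, interval -0.38 to 0.37), and 0.20 in females without female control 3. Skil scaled TPM was 0.703, 0.927, 0.73 and 0.598 in male controls, 0.856, 0.777, 0.738 and 0.762 in male KlKl, 0.612, 0.526, 0.853 and 0.629 in female controls, and 0.614, 0.474, 0.76 and 0.633 in female KlKl libraries. The 4 Skil groups overlapped, and female control 3 was the highest of the female libraries. Its log2 difference was 0.09 in males and -0.07 in females (SE 0.149 for both), and the limma adjusted p of both targets was 1 in males and at least 0.977 in females.

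**Figure D3:**
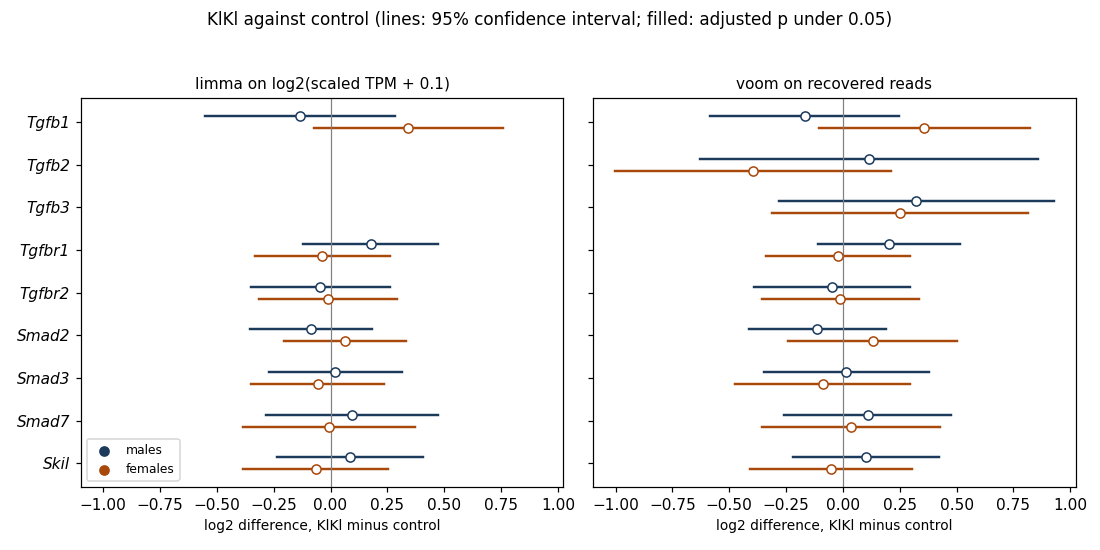
Log2 difference of each member, KlKl minus control, with 95% confidence intervals, in males and females, from limma on log2(scaled TPM + 0.1) (left, 7 members) and voom on recovered reads (right, 9 members). Every interval crosses 0, no point is filled (adjusted p under 0.05), and the Tgfb1 values in males and females lie on opposite sides of 0.

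These intervals give the size of difference the data allow. For Smad2, Smad3, Tgfbr1, Tgfbr2, Smad7 and Skil the limma intervals stayed within -0.38 to 0.47 in both sexes, on the log2(scaled TPM + 0.1) scale. For Tgfb1 they reached from -0.55 in males to 0.76 in females. The added 0.1 shrinks differences at such levels, and the voom intervals were wider. For the same genes without Tgfb1 these reached from -0.475 (Smad3, females) to 0.516 (Tgfbr1, males). For Tgfb1 they reached from -0.583 in males to 0.822 in females. Within name series, where each group has 2 libraries and no test was run, the Tgfb1 difference on the log2(scaled TPM + 0.1) scale was -0.19 (CFK) and -0.08 (CFdk) in males and 0.23 and 0.46 in females. A p above the threshold does not show that the groups were equal.

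The comparison of males with females gave the clearest differences among the members. Smad2 was higher in males in both genotype groups, Tgfbr2 was higher in male controls, and Tgfb2 and Tgfb3 had higher scaled TPM in every female library than in any male library of the same genotype group, a separation that did not hold in full on the other scales. The comparison is one of many: 34.3% of the genes tested by limma passed between male and female controls and 22.5% between the KlKl groups. Against this, 2 of 7 members passed in controls and 1 of 7 in KlKl, all higher in males, where 18.7% and 12.1% of genes passed in that direction. The members' count was therefore near the background. For the separation of male and female libraries, here and for single members below, the share over all genes is not given.

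**Figure D4:**
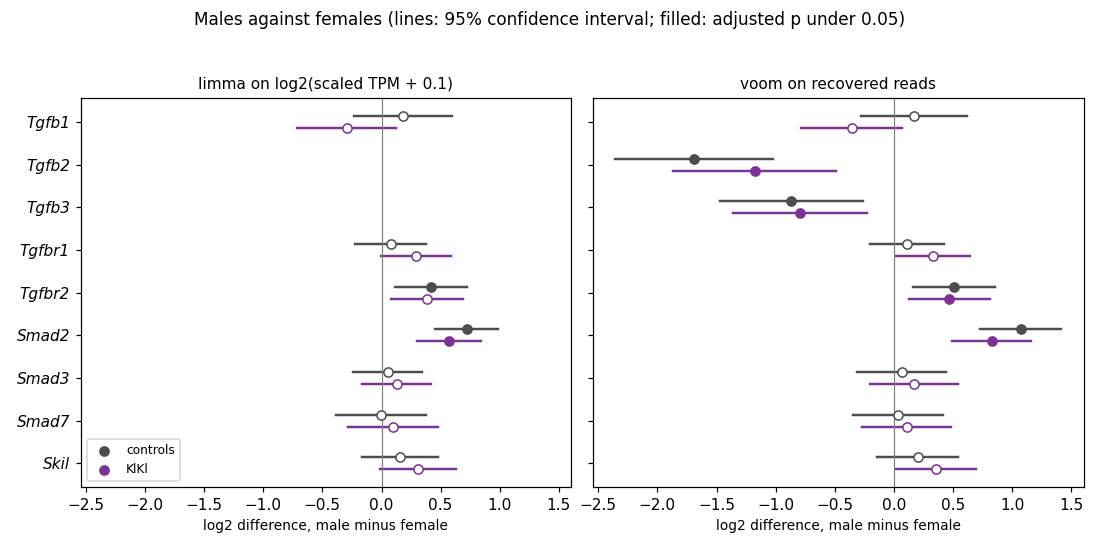
Log2 difference of each member, male minus female, with 95% confidence intervals, in controls and in KlKl, from limma on log2(scaled TPM + 0.1) (left, 7 members) and voom on recovered reads (right, 9 members). Filled points have an adjusted p under 0.05: Smad2 lies to the right of 0 in both fits, and Tgfb2 and Tgfb3 lie to the left in voom. Tgfbr2 is also filled on the right, for controls in limma and for controls and KlKl in voom.

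Smad2 in every male library, at 0.259 to 0.375 scaled TPM, exceeded every female library, at 0.126 to 0.219. Its log2 difference, male minus female, was 0.72 in controls (SE 0.125, limma adjusted p = 0.000834) and 0.57 in KlKl (SE 0.125, limma adjusted p = 0.0066), with the 4 male libraries above the 4 female ones in each. The added 0.1 shrinks this value for a gene at such a level, and voom on reads gave 1.07 and 0.83. Smad2 passed under all 31 alternatives that tested it in controls, and within name series the difference in controls was 0.67 in CFK and 0.77 in CFdk. Its partner Smad3, the other receptor-regulated SMAD of the pathway, had log2 differences of 0.05 in controls and 0.13 in KlKl (SE 0.136 for both, limma adjusted p = 0.798 and 0.533).

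Tgfbr2 was higher in male than female controls by 0.42 on the log2 scale (SE 0.142, limma adjusted p = 0.0357), with overlapping libraries. In KlKl the log2 difference was 0.38 (SE 0.142, limma adjusted p = 0.0674) and did not pass. All 4 male KlKl libraries lay above all 4 female ones, but the share of all genes that separate so is not given. The call in controls was lost without male control 3 (adjusted p = 0.109), male control 4 (0.105), female control 2 (0.0751) or female control 4 (0.107), and against the 2 heterozygous male controls alone the log2 difference was 0.20 (adjusted p = 0.405). It was also lost with no filter on low genes and when only the control libraries were fitted. Within name series it was 0.08 in CFK and 0.75 in CFdk, the series with the wild-type males. Whether the Tgfbr2 difference differed between genotype groups was covered by the interaction test above, with a log2 value of -0.03 (SE 0.2, limma adjusted p = 1).

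Of the ligands, Tgfb2 and Tgfb3 went the other way, with lower means in males than in females. Tgfb2 means were 0.0219 ± 0.0062 scaled TPM in male and 0.077 ± 0.0332 in female controls, and 0.0248 ± 0.00916 and 0.0538 ± 0.0129 in KlKl (SD, n = 4). The log2 ratio of the means, male over female, was -1.81 in controls and -1.12 in KlKl. Tgfb3 means were 0.047 ± 0.0132 and 0.0912 ± 0.0373 scaled TPM in male and female controls, and 0.0588 ± 0.0164 and 0.101 ± 0.0148 in KlKl (SD, n = 4), with log2 ratios of -0.96 and -0.78. Each of these 4 comparisons had an exact two-sided permutation p of 0.0286, the smallest that 4 against 4 libraries can give, and an adjusted p of 0.0571 over the 8 exact tests. Female control 3 held the highest value of both ligands, at 0.125 and 0.145 scaled TPM, which raised the female control means. The separation of the sexes depended on the scale. In the deposited TPM and in RPKM, male KlKl 3 exceeded the lowest female KlKl library for both ligands, with Tgfb2 at 0.729 RPKM against 0.691 and Tgfb3 at 0.767 against 0.698. Among controls, Tgfb3 overlapped in the deposited TPM, up to 0.0611 in males against 0.0507 and above in females, and Tgfb2 did not overlap on any of the 3 scales. On the deposited scale the log2 ratios of Tgfb2 were -1.41 in controls and -0.64 in KlKl and those of Tgfb3 -0.58 and -0.29, with adjusted exact permutation p values of 0.229 to 0.419. Voom on recovered reads called 4 of 9 members in controls and 4 of 9 in KlKl, namely Smad2, Tgfbr2, Tgfb2 and Tgfb3, where 39.5% and 28.3% of all genes passed. Its log2 differences for Tgfb2 were -1.69 (adjusted p = 0.000682) and -1.18 (adjusted p = 0.0135), and for Tgfb3 -0.87 (adjusted p = 0.0238) and -0.80 (adjusted p = 0.0351). Tgfb1, the abundant ligand, had limma log2 differences of 0.18 in controls and -0.29 in KlKl (SE 0.194 for both, adjusted p = 0.494 and 0.293), and -0.06 in controls without female control 3.

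In the main fit the remaining members, Tgfbr1, Skil and Smad7, did not pass the test between the sexes. Tgfbr1 in KlKl was higher in all 4 males than in all 4 females, with a log2 difference of 0.29 (SE 0.139, limma adjusted p = 0.148). In controls its log2 difference was 0.08, and 0.26 without female control 3, when it passed (limma adjusted p = 0.0214). Skil had log2 differences of 0.16 in controls and 0.31 in KlKl, and Smad7 of -0.003 and 0.10, all with limma adjusted p of at least 0.15.

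Other features of the libraries moved with sex too. The markers of fibroblasts and pericytes, cells that make TGF-beta-driven matrix, were lower in males, 5 of 7 in controls and 3 of 7 in KlKl past the limma threshold, where 15.6% and 10.3% of genes were called lower. Their summed scaled TPM was 3.74 to 5.95 in male controls and 8.12 to 11.2 in female controls, and 4.13 to 7.53 and 8.96 to 9.93 in KlKl, with no marker at 0. The summed smooth muscle markers were 3.68 to 5.33 in male controls and 6.32 to 10.9 in female controls. The median log2 difference, male minus female controls, was 0.40 for processed pseudogenes, -0.22 for long non-coding RNA and -2.45 for mitochondrial transfer RNA, beside 0.01 for protein-coding genes. The part of these features in the members' differences was not tested. The scaling also matters: without the median-ratio factors the median log2 difference of all genes was 0.28 in controls and 0.37 in KlKl, on the male side, and 5946 of 6955 calls in controls were higher in males, against 3420 of 6266 with the factors. On that scale 4 of 7 members passed in controls and 5 of 7 in KlKl, all higher in males, where 32.5% and 37.4% of all genes passed in that direction (38.1% and 39.6% in either).

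The other genes of the pathway gave no call for the KlKl effect. Of the 73 tested genes in 6 lists (latency and activation, co-receptors, other SMADs and regulators, early targets, matrix and contractile targets, other ligands and antagonists), 0 passed in limma in the mean effect of both sexes, 6 had an unadjusted p under 0.05 where 5.43% of all genes did, and voom called 0. The early targets had the highest list median, 0.26 on the log2 scale with 11 of 14 genes above 0, beside 0.00 over all genes tested. The members Smad7 and Skil, direct targets that are not in this list, had log2 differences of 0.04 and 0.01 in the mean effect. Cdkn1a, an early target that encodes the cell cycle inhibitor p21, had a log2 difference of 0.42 (SE 0.131, limma adjusted p = 0.73), and this gene also responds to injury and stress signals other than TGF-beta. The male median of this list was 0.37, with 4 of 14 genes at an unadjusted p under 0.05, and the female median was 0.16, with 0 of 14. Over all genes these shares were 4.54% in males and 4.01% in females.

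Matrix and contractile targets had a median log2 difference of 0.07 in the mean KlKl effect, with 8 of 12 above 0. Timp1, an inhibitor of matrix proteases, was at 0.46 (SE 0.219, adjusted p = 0.912) and Vim, an intermediate filament of mesenchymal cells, at 0.29 (SE 0.0838, adjusted p = 0.73). In the latency list Ltbp3, a latent TGF-beta binding protein, was at 0.35 (SE 0.106, adjusted p = 0.73) and Thbs1, an activator of the latent ligand, at 0.18 (SE 0.0978, adjusted p = 0.912). Median log2 differences were 0.10 for latency and activation, 0.04 for co-receptors and other receptors, 0.02 for other SMADs and regulators and -0.02 for other ligands and antagonists. The values with the largest size in these lists were -0.14 for Eng, 0.08 for Acvr1b, 0.19 for Tgif1, -0.15 for Smurf2, 0.34 for Gdf15 and -0.21 for Nog, all with limma adjusted p of at least 0.887. The summed markers of macrophages and dendritic cells were 14.9 to 28.6 scaled TPM in male KlKl against 15.0 to 20.3 in male controls, and 21.8 to 25.5 in female KlKl against 10.3 to 19.1 in female controls. Of the 6 listed markers 4 were tested by limma. In KlKl of each sex 3 were higher and 1 lower, and 0 passed. Cd74 held the largest part of the sum. Mean Csf1r was lower in KlKl, at 1.35 against 1.45 scaled TPM in males and 1.31 against 1.43 in females. The part of these markers in the values of the lists was not tested.

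**Figure D5:**
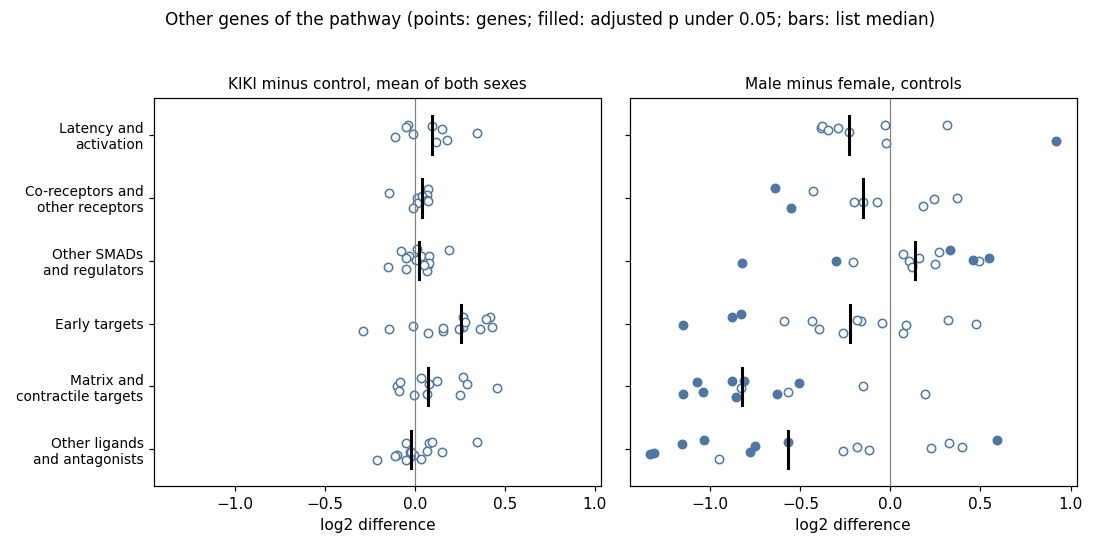
Log2 difference of each tested pathway gene by list, for the mean KlKl effect of both sexes (left) and for male minus female controls (right), with a bar at the list median and filled points for an adjusted p under 0.05. No point is filled on the left, where early targets have the highest median (0.26), and matrix and contractile targets lie lowest on the right (-0.82).

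Between male and female controls, the matrix and contractile targets had the highest share of calls, 8 of 12 lower in males and 0 higher, where 15.6% of all genes were called lower and 18.7% higher, with a median log2 difference of -0.82 beside 0.01 over all genes. Vim had a log2 difference of -1.08 (SE 0.119, limma adjusted p = 5.26e-05), Col1a2, a chain of type I collagen, one of -1.15, the smooth muscle gene Tagln one of -0.88 and the smooth muscle actin Acta2 one of -1.04. In this list 3 genes are also fibroblast markers and 2 are smooth muscle markers as counted above. In KlKl 6 of 12 were lower and 0 higher, where 10.3% of all genes were called lower and 12.1% higher. Among early targets 3 of 14 were lower and 0 higher in male controls, a count near the 15.6% of all genes, namely the transcription factors Snai2 (-1.15) and Snai1 (-0.83) and the matricellular gene Ccn2 (-0.88, adjusted p = 0.0492). Of these calls that of Ccn2 was lost under 23 of 33 alternatives. In KlKl 3 of the 14 were lower, Snai2 (-0.76), Ccn2 (-1.04) and the cell cycle inhibitor Cdkn2b (-0.80), and 1 was higher, the transcription factor Bhlhe40 (1.01). Alternatives ended the KlKl call of Cdkn2b in 17 of 31 cases and those of Snai2 and Ccn2 in 9 of 33 each, and that of Bhlhe40 in 0 of 33.

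Ligands and antagonists of the wider family were also lower in male controls, 7 of 15 against 1 higher, beside 15.6% and 18.7% of all genes, with a median log2 difference of -0.57. In KlKl 2 of these 15 were lower, Sostdc1 (-0.83) and Fstl1 (-0.52, lost under 14 of 31 alternatives), and 0 higher, beside 10.3% and 12.1%. In controls Sostdc1, a BMP antagonist of the distal nephron, was at -1.16 (SE 0.103, limma adjusted p = 1.53e-05), Fstl1 at -1.04 and Bmp2 at -0.78, while Bmp6, a ligand that regulates iron balance, was higher in males at 0.59. Furin, the protease that cleaves the TGF-beta propeptide, was higher in male controls by 0.92 (SE 0.113, limma adjusted p = 9.56e-05). It was the 1 call among 9 latency genes, where 18.7% of all genes were called higher and 15.6% lower. In KlKl Furin was higher by 0.92 as well, and the integrin subunit gene Itgb6 was lower (-0.67), a call lost under 17 of 31 alternatives. These counts, 1 higher and 1 lower of 9, were near the 12.1% and 10.3% of all genes. Of 9 co-receptors and other receptors 2 were lower in male controls, a count near the background of 15.6%, namely Eng (-0.64), an endothelial co-receptor, and Acvr2b (-0.55), whose call was lost under 16 of 31 alternatives. In KlKl 1 of the 9 was lower, Eng (-0.56), which did not pass under 8 of 33 alternatives. Among 14 other SMADs and regulators 3 were higher and 2 lower in male controls, close to the 18.7% and 15.6% of all genes. The higher ones were Usp15 (0.55), a deubiquitinase that acts on receptor and SMADs, the ubiquitin ligase Smurf2 (0.46) and Zfyve9 (0.33), also called SARA, which presents Smad2 to the receptor, and Pmepa1 (-0.82), a target that sequesters SMADs, was among the lower ones. In KlKl 4 of the 14 were higher and 0 lower, Usp15 (0.40), Smurf2 (0.41), Zfyve9 (0.28) and Smad5 (0.40), a SMAD of BMP signalling, of which Zfyve9 lost its call under 6 of 31 alternatives and Smad5 under 13 of 33.

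The genes whose pattern over the 16 libraries was most like each tested member were found by Pearson r of log2(scaled TPM + 0.1) among 10686 protein-coding genes, as a description. For Smad2 they were Chtf8 (r = 0.984) and Zyg11b (0.981), and for Tgfbr2 Lratd2 (0.923) and Slc30a4 (0.919). For Tgfbr1 they were Pds5b (0.943) and Rc3h1 (0.89), and for Tgfb1 Mtss2 (0.897) and Zdhhc18 (0.885). Smad3 had Patz1 (0.896) and Kantr (0.81), Smad7 had Rrp8 (0.883) and Ddx6 (0.832), and Skil had Eif1a (0.888) and Parg (0.883). All 16 libraries enter each r, so a difference between the sexes or female control 3 alone can set it.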

How the data were processed

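Polyadenylated RNA of 16 kidneys was sequenced with a directional library kit, per the labels' protocols. The authors deposited 1 table of TPM, and the submitters' processing notes name Partek and the build mm39. Not given in the sources used here are the aligner, counting rule and annotation. The deposited TPM sum to the same total in every library and follow reads divided by the whole gene span, so reads were recovered from them (81.1% of values under 20 reads whole within 0.1 reads). Because that total is shared with abundant mitochondrial genes, TPM were divided by median-ratio factors (15056 genes).

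Limma 3.58.1 in R 4.3.3 fitted log2(scaled TPM + 0.1) with 1 mean for each group over all 16 libraries and a mean-variance trend. The test covered the 18273 genes that reached 0.1 TPM in no fewer than 4 libraries, with Benjamini-Hochberg adjustment and a threshold of 0.05. Spans of members run to 111.228 kb, which makes their TPM small, so the pseudocount and filter were set low. Limma-voom on recovered reads (17598 genes with no fewer than 10 reads in 4 libraries) was an alternative, and members below the filter had exact permutation tests (scipy 1.17.1). Intervals are 95% confidence intervals of the difference of group means, with the error estimated from the spread between animals. Exon lengths are from GENCODE M21 gene models, an older annotation than the files may use. Strand use in counting is not stated, so reads of overlapping antisense genes may be included.

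The members and lists were chosen with earlier results of these data known. Named genes are the members, Kl, up to 4 passing genes of each list in a described contrast, the 2 genes of each list with the largest mean KlKl effect, and the 2 genes most like each member. One gene that the rule names is not reported here. The 0 columns of other samples needed no removal, and 1 repeated row of Kl was counted once. Alternatives covered pseudocount, filter, scaling, moderation, weights, covariates, threshold and leaving out each library.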

Additional observations from a re-analysis of the deposited data

Results flagged for a closer look

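In 36 groups of 4 libraries (9 members in 4 groups), 3 held a library whose gap to the nearest other exceeded Dixon's critical share of the group's range, and chance flags about 1 in 20 groups. All 3 were in female control 3. Its Tgfb1 was the lowest of its group, at 0.2195 scaled TPM against 0.5051 to 0.5631, with the gap at 0.831 of the range. Its Tgfbr1 was the highest, at 0.9056 against 0.4803 to 0.5361 (0.869 of the range). Its Smad7 was the highest, at 1.177 against 0.6229 to 0.6335 (0.981 of the range). The same library had the fewest recovered reads (8209618) and the largest share of nuclear ribosomal RNA (7.06% of TPM). It was also the oldest female, at 57 days. The part of these features in the 3 values was not tested.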

How the results depend on the processing

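The counts of members called for the KlKl effect were 0 in males, in females, in the mean and in the difference under each alternative that gave a value. A filter of TPM 1 in 4 libraries, alone or with the deposited scale, left no member to test. For the members and named genes, 2330 of the alternative values kept direction and side of the threshold, 24 newly passed, 155 no longer passed and 66 changed sign. The cause of these changes was not tested.

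In controls, the 2 members called between males and females became 4 with a filter of TPM 0.01, on the deposited scale, with voom and with library weights, and 1 with heterozygous controls alone, at a threshold of 0.01 and when only the contrast's own libraries were fitted. Leaving out 1 library gave 1 (male control 3 or 4, female control 2 or 4) to 3 (female control 3). In KlKl, the 1 member called became 5 on the deposited scale, 4 with voom, 3 with weights, 3 with the contrast's own libraries, 2 with nuclear protein-coding scaling and 2 at a threshold of 0.1, and leaving out 1 library gave 1 to 2. Over all genes, calls between the control sexes (6266) were 3036 with heterozygous controls, 3549 at a threshold of 0.01, 3860 with a filter of TPM 1 and 10365 with weights, and those between the KlKl sexes (4108) were 7228 on the deposited scale, 7266 with weights, 1658 at a threshold of 0.01, 2525 without female KlKl 2 and 2714 without male KlKl 2. For the KlKl effect the counts over all genes were 0 to 8 in males and 1 to 8 in females, apart from 70 in females with weights, and 2 to 15 in the mean effect (15 with weights).

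A replicate block left 1 member called in controls (Smad2) against 2, and changed no other count of members. Samples with the same replicate number did not deviate together: the correlations were -0.12 to 0.17, and a library correlated best with its own number in 2 of 16 cases, so they were not taken to pair the animals. The numbers do follow the library names, since in each group 1 and 2 are CFK and 3 and 4 are CFdk, and a number has the same S number in males and females, but the labels tie no number to a litter, batch or day.

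Signs changed as follows (log2 differences, male minus female or KlKl minus control). On the deposited scale the male KlKl differences were 0.101 (Tgfb1), 0.1973 (Tgfbr2) and 0.1341 (Smad2), the female ones 0.11 (Tgfbr1), 0.1202 (Tgfbr2), 0.0552 (Smad3), 0.1444 (Smad7) and 0.0847 (Skil), Tgfb1 between the KlKl sexes 0.0969, Smad7 between the control sexes 0.3087, and the mean KlKl effects 0.0731 (Eng, and 0.0495 with pseudocount 1 and a filter of 1) and 0.0308 (Smurf2). On that scale the median KlKl effect of all genes was 0.23 in males and 0.14 in females. With nuclear protein-coding scaling the female differences were 0.053 (Tgfbr1), 0.0671 (Tgfbr2), 0.0084 (Smad3), 0.0858 (Smad7) and 0.0236 (Skil), the male Tgfbr2 0.042, and Smad7 between control sexes 0.0713. Voom gave Smad7 0.0354 in females and 0.0364 between control sexes, and a pseudocount of 0.01 gave 0.0008 for the latter. With library weights the female differences were 0.0746 (Tgfbr1), 0.0384 (Tgfbr2), 0.1454 (Smad7) and 0.1199 (Skil), male Smad3 -0.0698, between control sexes -0.0388 (Tgfb1) and 0.1645 (Smad7), and Acvr1b -0.0285. With age they were 0.0045 (Tgfbr1) and 0.0432 (Smad7) in females, -0.0322 (Smad7) in males and 0.1051 (Smad7) between control sexes. With heterozygous controls alone they were 0.1752 (Tgfbr2), 0.0149 (Smad2), -0.0276 (Smad7) and -0.0416 (Skil) in males, and -0.0459 (Smad3) and 0.1201 (Smad7) between control sexes.

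Leaving out 1 library at a time gave these ranges. For the female KlKl effect they were -0.1214 to 0.143 (Tgfbr1), -0.1093 to 0.0826 (Tgfbr2), -0.0024 to 0.1624 (Smad2), -0.0944 to 0.1976 (Smad7) and -0.1558 to 0.0523 (Skil). For the male effect they were -0.0207 to 0.4028 (Tgfb2), -0.1423 to 0.0312 (Tgfbr2) and -0.1127 to 0.1304 (Smad3), and for the mean effect -0.0362 to 0.1309 (Acvr1b). Between control sexes they were -0.0629 to 0.2882 (Tgfb1), -0.0092 to 0.2551 (Tgfbr1) and -0.0732 to 0.2005 (Smad7), and between KlKl sexes -0.0062 to 0.2369 (Smad3).

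Depth limits Tgfb2 and Tgfb3 most, with at most 92 and 37 reads in a library. With 4 animals a group, exact tests cannot go below 0.0286. RNA levels of whole kidney do not separate cell types or measure SMAD activity.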
